A study of Mus musculus with 2 samples.

Results

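The genes of cholesterol synthesis and sterol regulation were followed in GMPs, the granulocyte-monocyte progenitors of the BM, as 32 genes taken by their symbols, out of 24421 symbols with a value. Of these, 18 encode enzymes that build cholesterol from acetyl-CoA, 5 encode the SREBP machinery, 4 move or store sterols inside the cell, and 5 belong to the LXR and efflux arm. All 32 had a value in both libraries, and 31 had a mean of at least 1 RPKM, the level required for a gene to enter the counts below, where such genes are called tested. The exception was Nr1h3.

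Bulk RNA-seq was performed on sorted GMPs from female non-tumor-bearing (NTB) mice and from female mice carrying 4T1, a mouse mammary carcinoma cell line, implanted orthotopically. The sample labels describe both groups as F1 semi-syngeneic mice of H-2b/d background, and give neither age nor how many mice went into a sort. Each group was 1 library (NTB-GMP and 4T1-GMP), so no difference below has a replicate error or a p-value, and the groups cannot be told apart from their libraries. Values are RPKM, reads per kilobase of gene scaled to library size, as the authors deposited them. Ratios of 4T1-GMP over NTB-GMP are log2 ratios of RPKM + 0.1, and the added 0.1 makes differences of low genes appear smaller than they are. The interval given with a ratio is a 95% Clopper-Pearson interval on the reads behind the RPKM. It covers counting error only, since 1 library per group leaves no replicate. No molecular identifiers marked PCR copies of a read, so it can be too narrow even for counting error. In place of a statistical test, a gene was called past a limit of 1.5-fold, and the counts are to be read against the share of all 10378 tested genes called in the same way.

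Cells make cholesterol from acetyl-CoA through mevalonate, the isoprenoid diphosphates, squalene and lanosterol. SREBP2, encoded by Srebf2, turns on most genes of this route. When sterols are plentiful, INSIG proteins hold SREBP and its escort SCAP in the ER, and when sterols are scarce, SCAP carries SREBP to the Golgi, where proteases release the active factor. LXRs work in the other direction: bound by oxysterols, they turn on the exporters ABCA1 and ABCG1 and MYLIP, a ubiquitin ligase that lowers lipoprotein receptors at the cell surface.

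The comparison asked whether genes of SREBP2-driven synthesis and genes of the LXR and efflux arm stood differently in GMPs from tumor-bearing and NTB mice. All 18 synthesis genes were higher in 4T1-GMP than in NTB-GMP, under each of the scalings tried, against 54.7% of all tested genes as deposited. Their median log2 ratio was 0.75, compared with 0.05 over all tested genes, and ran from 0.21 for Hmgcs1 to 1.91 for Fdps. A total of 13 of the 18 were past 1.5-fold higher, where 9.8% of tested genes were, and 0 were past it in the lower direction, where 11.6% were. In contrast, the 4 tested genes of the LXR and efflux arm had a median of -0.41, with 0 past 1.5-fold higher and 2, Abcg1 and Mylip, past it lower. The medians of the synthesis genes and of the LXR and efflux genes thus lay 1.16 apart. With no filter on low values, which adds Nr1h3 (log2 ratio 1.43), the latter median was -0.04 and the distance 0.79. Over the 31 tested genes, 16 were past 1.5-fold higher and 2 lower, and the median was 0.63.

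**Figure D1:**
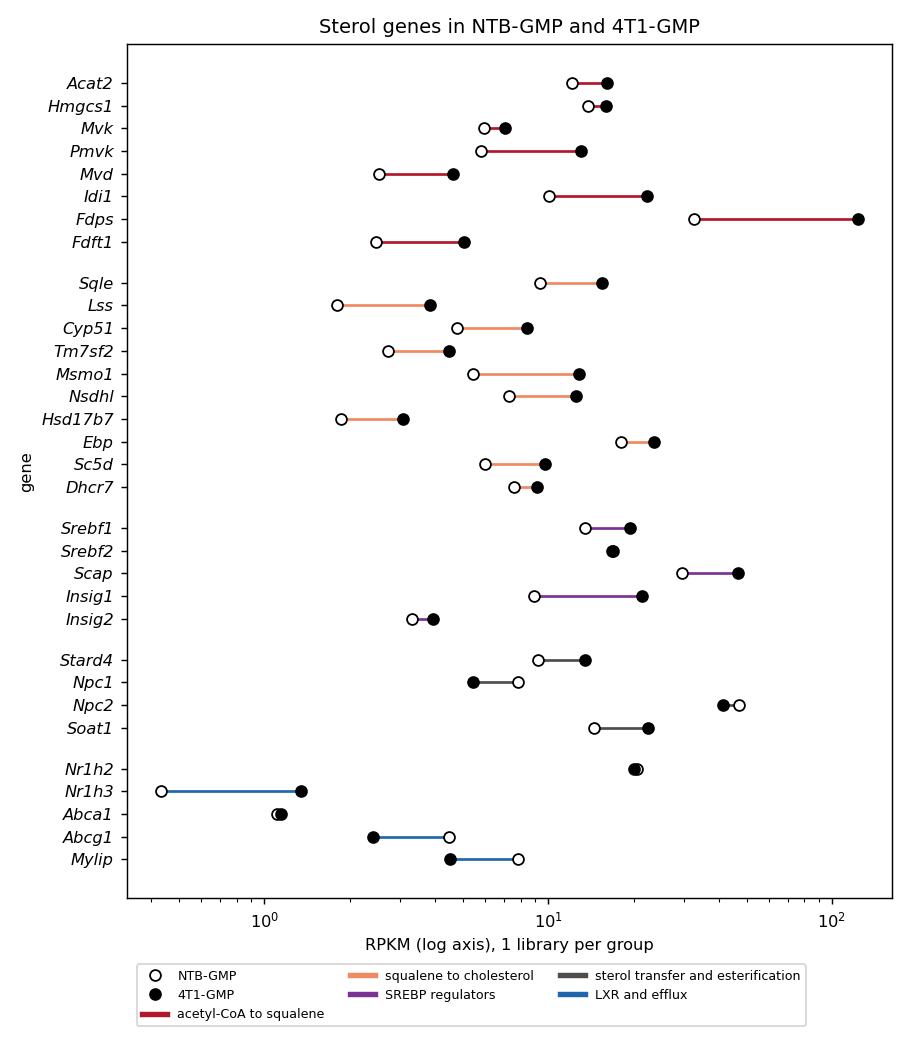
RPKM (log axis) of each of the 32 sterol genes in NTB-GMP (open circles) and 4T1-GMP (filled circles), 1 library per group, joined by a line colored by group. The filled circle lies to the right for all 18 synthesis genes, farthest for Fdps (32.7 and 123 RPKM), and to the left for Npc1, Npc2, Nr1h2, Abcg1 and Mylip.

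The library sizes behind the RPKM, worked out from the values, were 10180365 for NTB-GMP against 30016263 for 4T1-GMP. They were not whole numbers before rounding, so they may include a scaling factor and need not be the reads sequenced. The recovered reads of Rn45s, the ribosomal RNA precursor, came to 17.0% of the former size and 6.98% of the latter. Leaving Rn45s out of both sizes lowers the log2 ratio of the RPKM by 0.16 for every gene, and the median of all tested genes then stood at -0.11. With that scaling all 18 synthesis genes were still higher, where 39.2% of tested genes were, with a median of 0.59. The count past 1.5-fold higher was 9 of the 18 synthesis genes and 10 of the 31 tested members, where 5.73% of tested genes were. The count past it lower was 3 of the 31 (Npc1, Abcg1 and Mylip), where 17% of tested genes were. At a limit of 2-fold, with the RPKM as deposited, 7 of the 31 were called higher against 3.25% of tested genes, and 0 lower against 4.92%. The interval of the reads lay above 0 for 22 of the 31 and for 36.1% of tested genes, and below 0 for 4 of the 31 and 27.9%. These intervals stand for the RPKM as deposited. Leaving Rn45s out would lower each of them by the same 0.16, and they were not counted again.

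Markers of other cells moved between the same libraries. Of 12 markers of mature neutrophils, 11 were tested and all 11 were past 1.5-fold higher in 4T1-GMP (9.8% of all tested genes), with a summed RPKM of 507 for NTB-GMP against 4049 for 4T1-GMP, most of it S100a9 and S100a8. The 8 tested of 12 monocyte, macrophage and dendritic markers were all lower, at 148 and 38.2 RPKM in sum, led in NTB-GMP by Cd74 and Irf8. Of all 10378 tested genes, 4702 were lower. Past 1.5-fold lower were 7 of the 8, against 11.6% of all tested genes, and the interval of Cd68 (-0.56 to 0.15) included 0. Stem and early progenitor markers summed to 35.1 and 10.2 RPKM and erythroid and megakaryocyte markers to 22.0 and 6.08 RPKM. All 3 tested genes of each list were past 1.5-fold lower, again against 11.6%. The globin genes Hba-a1 and Hbb-bs were listed at 0 in both libraries. The lymphoid list summed to 191 and 337 RPKM, nearly all of it Nkg7, while Cd3e was listed at 0 in NTB-GMP. The 8 GMP and primary granule markers were all detected, summing to 10568 and 16226 RPKM, but went both ways. Mpo, myeloperoxidase, held the largest share of the sum with 5163 and 5625 RPKM, and 4 other granule or myeloid genes were past 1.5-fold higher (3 without Rn45s), among them Prtn3 with 1399 and 3311 RPKM and Ms4a3 with 479 and 1220 RPKM. The 3 surface antigens of progenitors were past 1.5-fold lower (11.6% of all tested genes). Kit had 78.5 and 49.1 RPKM and Cd34 had 154 and 59.4 RPKM. Fcgr3, part of the CD16/32 antigen that defines GMPs, had 53.1 and 28.6 RPKM. Ly6a, which encodes the Sca-1 antigen of stem cells, was listed at 0 and 0.27 RPKM. The part of these markers in the differences of sterol genes was not tested. In bulk RNA, fewer cells of a type and less RNA per cell cannot be told apart.

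The early enzymes carry acetyl-CoA to squalene, and their 8 genes had a median log2 ratio of 0.93. The first steps differed little. Acat2, the cytosolic thiolase that joins acetyl-CoA units, had 12.1 RPKM in the NTB library and 16.1 in the 4T1 library, a log2 ratio of 0.41 (interval 0.21 to 0.61). Hmgcs1, which encodes the HMG-CoA synthase, had 13.8 and 16.1 RPKM (log2 ratio 0.21, interval 0.07 to 0.36). Mevalonate kinase, Mvk, had 5.95 and 7.02 RPKM. With the RPKM as deposited, its interval of -0.08 to 0.56 was the only 1 among the 18 synthesis genes to include 0. None of these 3 was past 1.5-fold. Both remaining kinase and decarboxylase steps of the mevalonate route were past the limit: Pmvk, the phosphomevalonate kinase, had 5.80 and 13.0 RPKM (2.24-fold), and Mvd, the diphosphomevalonate decarboxylase, had 2.53 and 4.63 RPKM (1.83-fold).

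The isoprenoid steps held the largest difference. Idi1, the isomerase that turns isopentenyl diphosphate into its reactive isomer, had 10.0 RPKM in NTB mice and 22.3 RPKM in 4T1-bearing mice, 2.22-fold higher (log2 ratio 1.14, interval 0.97 to 1.33). Fdps, whose enzyme joins these units into farnesyl diphosphate, had 32.7 and 123 RPKM. At 3.76-fold (log2 ratio 1.91, interval 1.78 to 2.05), it had the largest difference of the 18 and a ratio above that of 99.0% of all tested genes. It was also the most abundant synthesis transcript in both libraries, at 13.3 times the level of Fdft1 in NTB-GMP and 24.3 times in 4T1-GMP. Fdft1, the squalene synthase that commits farnesyl diphosphate to sterols, had 2.47 and 5.07 RPKM (2.05-fold). Summed over the 18 synthesis genes, the level was 150 (NTB-GMP) and 311 RPKM (4T1-GMP), and without Fdps it was 118 and 187 RPKM. The median log2 ratio of the other 17 genes was 0.72. In GENCODE M21 on GRCm38 (mm10), Fdps lies at chr3:89093588-89101959 on the minus strand and Idi1 at chr13:8885501-8892451 on the plus strand.

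The 10 genes from squalene to cholesterol had a median log2 ratio of 0.71, all with intervals above 0 for the RPKM as deposited. Of these, 8 were past 1.5-fold higher (9.8% of all tested genes), 4 of them without Rn45s (5.73%). Sqle, the squalene epoxidase and a rate-limiting step of the late pathway, had 9.37 RPKM in the NTB library and 15.5 in the 4T1 library (1.66-fold). Lss, the lanosterol synthase that closes the sterol rings, had 1.80 and 3.84 RPKM, and its 2.13-fold difference was past even 2-fold. Cyp51, the lanosterol demethylase, had 4.76 and 8.43 RPKM (1.77-fold). Demethylation of the sterol nucleus continued the pattern. Msmo1, the sterol methyl oxidase, had 5.44 and 12.8 RPKM, the largest difference of the late genes at 2.35-fold (log2 ratio 1.22, interval 0.93 to 1.55). Its partners Nsdhl, the sterol dehydrogenase, had 7.31 and 12.6 RPKM, and Hsd17b7, the keto reductase, had 1.87 and 3.08 RPKM. Tm7sf2, a sterol reductase, had 2.72 and 4.48 RPKM. The 3 genes of the last steps were less alike. Sc5d, a sterol desaturase, was past the limit with 5.98 and 9.73 RPKM, but Ebp, the sterol isomerase, with 18.0 and 23.7 RPKM and Dhcr7, a reductase that completes cholesterol, with 7.57 and 9.15 RPKM were not. Dhcr7 had the smallest ratio of the late genes (0.27, interval 0.05 to 0.50).

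**Figure D2:**
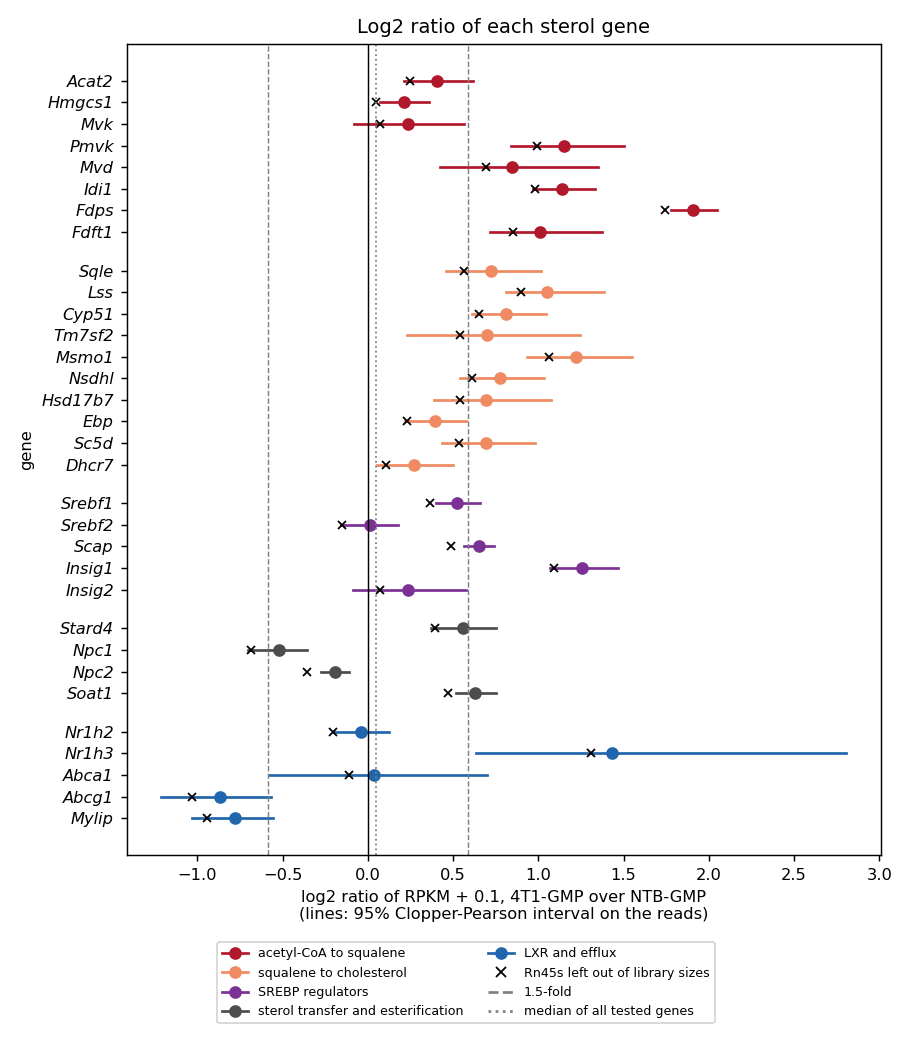
Log2 ratio of RPKM + 0.1 (4T1-GMP over NTB-GMP) of each sterol gene, colored by group, with the 95% Clopper-Pearson interval on the reads as a line and the ratio without Rn45s in the library sizes as a cross. Dashed lines mark 1.5-fold and the dotted line the median of all tested genes (0.05); the synthesis genes lie between 0.21 and 1.91, and Abcg1 and Mylip lie at -0.87 and -0.78.

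Among the regulators, Insig1 and Scap were past 1.5-fold and Srebf2 was not. Insig1, which retains SCAP in the ER and is itself a target of SREBP, had 8.90 RPKM in NTB mice and 21.4 RPKM in 4T1-bearing mice. This 2.40-fold difference (log2 ratio 1.26, interval 1.07 to 1.47) was second only to Fdps among the 31 tested genes. Its paralog Insig2 had 3.33 and 3.93 RPKM, with an interval that included 0 (-0.09 to 0.57), so that Insig1 exceeded Insig2 2.68 times in NTB-GMP and 5.45 times in 4T1-GMP. Scap had 29.7 and 46.7 RPKM (1.57-fold, log2 ratio 0.65, interval 0.56 to 0.74). It was the most abundant of the 5 regulators in both libraries. Its ratio fell under 1.5-fold, to 0.49, without Rn45s in the library sizes.

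The transcripts of the factors themselves both had smaller ratios than the median synthesis gene. Srebf2 had 16.9 and 17.0 RPKM, a log2 ratio of 0.01 (interval -0.16 to 0.18), which turned to -0.15 without Rn45s and lay between -0.07 and -0.04 under the 3 other scalings. Srebf1, which encodes the SREBP1 proteins that chiefly drive fatty acid synthesis, had 13.5 and 19.5 RPKM (log2 ratio 0.52, interval 0.40 to 0.66), just under the limit. The ratio of Srebf1 to Srebf2 was 0.80 in NTB-GMP and 1.15 in 4T1-GMP. SREBP proteins are made active by cleavage, which RNA levels do not measure.

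The 4 genes of sterol transfer and storage went both ways. Stard4, a soluble sterol carrier, had 9.18 (NTB-GMP) and 13.5 RPKM (4T1-GMP) (log2 ratio 0.56), just under 1.5-fold. Soat1, which esterifies cholesterol for storage, had 14.5 and 22.5 RPKM (log2 ratio 0.63, interval 0.52 to 0.75), past 1.5-fold by a small margin and under it without Rn45s (0.47). In contrast, both Niemann-Pick genes, whose proteins release sterols from lysosomes, had intervals below 0. Npc1 had 7.86 and 5.44 RPKM (log2 ratio -0.52, interval -0.70 to -0.36) and was past 1.5-fold lower only without Rn45s (-0.69). Npc2 had 47.1 and 41.2 RPKM (log2 ratio -0.19, interval -0.28 to -0.11), the highest level of all 32 genes in NTB-GMP.

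In the LXR and efflux arm, the receptors and their targets gave no common direction. Nr1h2, which encodes LXR beta, had 20.6 RPKM in the NTB library and 20.1 in the 4T1 library (log2 ratio -0.04, interval -0.20 to 0.12). Nr1h3, which encodes LXR alpha, was near the bottom of the measured range with 0.43 and 1.34 RPKM, from 9 and 82 reads. Its ratio of 1.43 (interval 0.63 to 2.81) was opposite in sign to those of Abcg1 and Mylip, but the gene did not reach the level required for testing. Nr1h2 exceeded Nr1h3 47.5 times in NTB-GMP and by less in 4T1-GMP. The exporters differed from each other. Abca1 had 1.11 and 1.14 RPKM, from at least 29 and 88 reads. Its interval of -0.58 to 0.70 included 1.5-fold higher but ended just short of 1.5-fold lower. Since these reads are a lower bound, the interval may be wider than the sequencing warrants. The ratio of 0.04 turned negative, to between -0.11 and -0.01, under 3 of the 4 other scalings. Abcg1 had 4.49 and 2.42 RPKM, 1.86-fold lower in 4T1-GMP (log2 ratio -0.87, interval -1.21 to -0.57). Mylip had 7.80 and 4.50 RPKM, 1.73-fold lower (log2 ratio -0.78, interval -1.03 to -0.56). Only 6.34% and 7.51% of tested genes, respectively, had a lower ratio than these genes. With Nr1h3 included, the median of the 5 genes was -0.04, and without both receptors that of the 3 targets was -0.78. Abcg1 lies at chr17:31057675-31117988 and Mylip at chr13:45389742-45412022, both on the plus strand of GRCm38.

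**Figure D3:**
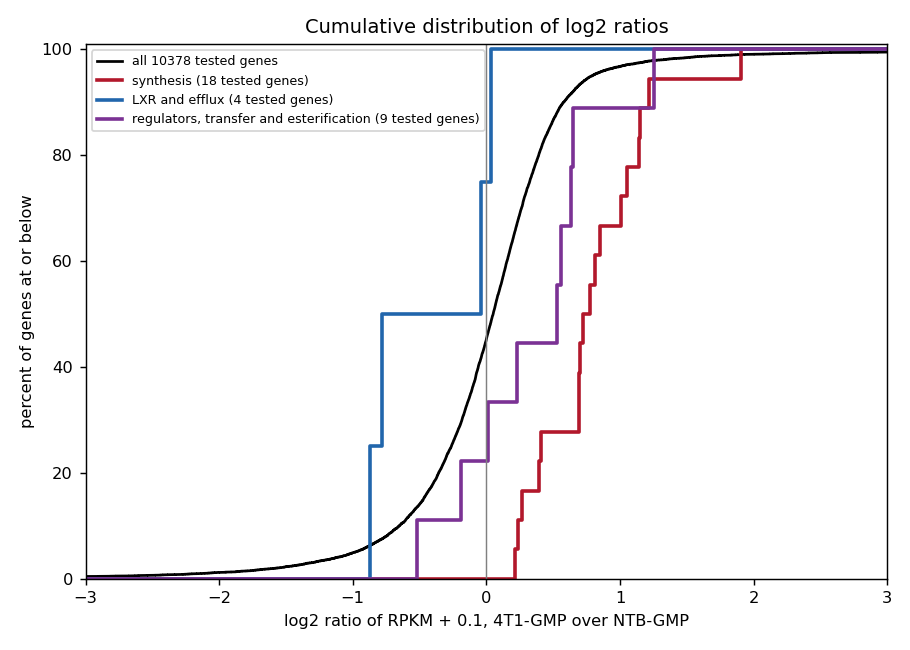
Cumulative share of genes (percent) at or below each log2 ratio of RPKM + 0.1, 4T1-GMP over NTB-GMP, for all 10378 tested genes and for the tested sterol genes in 3 groups. The curve of the 18 synthesis genes begins at 0.21, to the right of 0, whereas 3 of the 4 tested LXR and efflux genes lie to the left of 0.

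The promoters of these genes were examined for letters that SREBP and its partners bind. The synthesis genes were grouped as driven by SREBP2, so their share of such letters is not independent of that choice. SREBP acts weakly alone and works with NF-Y and Sp1 bound nearby. RefSeq sequences on GRCm38.p6, from 250 bases before to 50 bases after each start site, were matched by symbol for 26 of the 32 genes. Fdps, Fdft1, Sqle, Stard4, Npc1 and Abcg1 had no sequence and were not searched. Both strands were searched, overlapping matches were counted, and a gene with several start sites was counted if any of its sequences held the letters. The motifs were chosen with the values known. The NF-Y letters CCAAT stood in 14 of 15 synthesis promoters (93.3%), in 21 of all 26 (80.8%), and in 1 of the 4 LXR and efflux promoters, Mylip. Of the 7988 tested genes with a sequence, 43.4% held them, as did 37.4% of all 32851 promoter sequences. The Sp1 letters GGGCGG stood in 14 of 15 synthesis promoters, but also in 70.1% of tested genes and 35.7% of all promoter sequences. Both sets of letters together were found in 13 of the 15 and in 30.7% of tested genes. The strict sterol element TCACNCCAC was found in Hmgcs1 alone of the 26, against 1.38% of tested genes and 1.24% of all promoter sequences. The E-box CACGTG stood in 6 of 26 (12.5% of tested genes, 7.15% of all promoter sequences) and the nuclear receptor hexamer AGGTCA in 3 of 26 (14.5% and 16.3%). Across tested genes, those with and without CCAAT had median log2 ratios of 0.06 and 0.04. A match is a string of letters and not a bound site.

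The promoters of 4 genes show how the letters lie. Hmgcs1 is shown as the only promoter of the 26 with the sterol element, and Idi1 and Insig1 as an enzyme and a regulator past 2-fold higher. Mylip is shown as an LXR target that was lower, since Abcg1, which was also lower, had no sequence. Capitals mark TCACNCCAC and CCAAT, the latter as ATTGG because each match lay on the other strand; each line reads 5′ to 3′ along the plus strand, which is the gene's own strand. In Hmgcs1 the sterol element begins at -137 from the start site and the last upstream CCAAT at -45, and in Idi1 the matches begin at -45 and -14. Idi1 holds CCAAT at 2 places, Insig1 at 1, Hmgcs1 at 4 and Mylip at 3. Their log2 ratios of RPKM were 1.14, 1.26, 0.21 and -0.78, respectively.
Hmgcs1, chr13:119690101-119690400, strand +: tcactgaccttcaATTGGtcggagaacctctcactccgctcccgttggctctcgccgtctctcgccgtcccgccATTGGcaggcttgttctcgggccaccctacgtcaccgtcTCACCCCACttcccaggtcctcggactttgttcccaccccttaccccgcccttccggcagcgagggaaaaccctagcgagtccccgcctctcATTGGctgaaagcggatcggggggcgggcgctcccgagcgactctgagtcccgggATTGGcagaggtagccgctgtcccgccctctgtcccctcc
Idi1, chr13:8885356-8885655, strand +: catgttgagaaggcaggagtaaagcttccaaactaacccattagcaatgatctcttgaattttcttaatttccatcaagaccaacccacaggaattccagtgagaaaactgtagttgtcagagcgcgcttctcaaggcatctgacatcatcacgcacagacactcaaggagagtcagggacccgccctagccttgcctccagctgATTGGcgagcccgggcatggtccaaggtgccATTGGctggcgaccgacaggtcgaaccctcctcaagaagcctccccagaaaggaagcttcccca
Insig1, chr5:28071162-28071461, strand +: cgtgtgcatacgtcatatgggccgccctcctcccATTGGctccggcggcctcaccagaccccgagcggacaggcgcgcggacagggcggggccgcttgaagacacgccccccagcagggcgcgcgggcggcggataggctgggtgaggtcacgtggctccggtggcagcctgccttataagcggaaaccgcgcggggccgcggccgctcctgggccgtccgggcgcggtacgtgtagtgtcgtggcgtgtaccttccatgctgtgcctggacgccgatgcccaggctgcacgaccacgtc
Mylip, chr13:45389492-45389791, strand +: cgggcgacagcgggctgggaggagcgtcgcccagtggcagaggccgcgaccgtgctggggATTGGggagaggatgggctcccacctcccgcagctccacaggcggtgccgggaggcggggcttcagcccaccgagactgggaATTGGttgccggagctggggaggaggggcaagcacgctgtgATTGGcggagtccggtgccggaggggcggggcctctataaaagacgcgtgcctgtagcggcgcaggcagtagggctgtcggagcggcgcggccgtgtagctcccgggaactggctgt

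**Figure D4:**
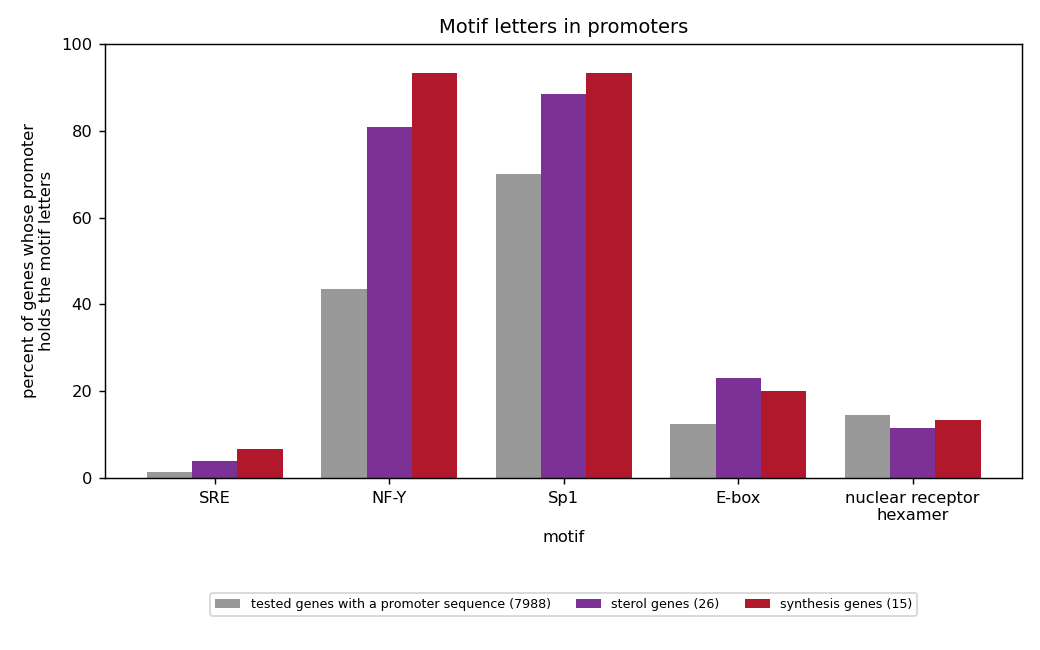
Percent of genes whose promoter sequence holds the letters of each of 5 motifs, for the 7988 tested genes with a sequence, the 26 sterol genes and the 15 synthesis genes. The bars of NF-Y stand at 43.4%, 80.8% and 93.3%, and those of the nuclear receptor hexamer at 14.5%, 11.5% and 13.3%.

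Other lipid lists put these values in context. Fatty acid synthesis and desaturation, driven chiefly by SREBP1, had 11 tested genes of 13, with 9 higher in 4T1-GMP (54.7% of all tested genes) and a median log2 ratio of 0.42. Past 1.5-fold higher was 1 of the 11, near the 9.8% of all tested genes, and 0 without Rn45s. Fads1, a fatty acid desaturase, had the largest ratio (0.72, from 13.6 and 22.5 RPKM), followed by the elongase Elovl5 (0.57), whereas Acss2, which activates acetate, had the lowest (-0.42, from 4.40 and 3.27 RPKM), followed by Gpam (-0.10). Fasn, the fatty acid synthase, had 40.9 and 54.3 RPKM (log2 ratio 0.41). The branches that use farnesyl diphosphate for products other than sterols had a median of 0.13 over 12 genes, with 8 higher as deposited and 6 without Rn45s. Again 1 was past 1.5-fold higher, near the same 9.8%, and 0 without Rn45s. The highest were Pdss1 (0.68), which makes the side chain of ubiquinone, and Ggps1 (0.54), which makes geranylgeranyl diphosphate. The lowest were Rabggta (-0.14) and Pggt1b (-0.05), subunits of prenyl transferases. Fdps, directly upstream of these branches and of Fdft1, had a ratio above each of theirs.

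The proteases and ligases that process SREBP or degrade sterol enzymes had 10 tested genes, 5 higher and 5 lower, with a median of 0.02 and 0 past 1.5-fold in either direction (9.8% of all tested genes higher, 11.6% lower). Without Rn45s, 2 of the 10 were higher, the median was -0.14 and 1, Fbxw7, was past 1.5-fold lower, where 17% of tested genes were. The ligase gene Rnf145 had a log2 ratio of 0.35, and Fbxw7, a ligase subunit that marks nuclear SREBP for degradation (-0.53), and Syvn1 (-0.35) were lowest. Mbtps1, the first protease to cut SREBP, had 28.4 and 23.0 RPKM (log2 ratio -0.30, interval -0.47 to -0.14). A wider list of lipoprotein receptors, sterol carriers and LXR partners had 19 tested genes of 23, with 12 higher, a median of 0.15, and 2 past 1.5-fold in each direction, near the 9.8% and 11.6% of all tested genes. Without Rn45s, 9 of the 19 were higher and the median was -0.02, with 2 still past the limit in each direction. Tspo, a mitochondrial outer membrane protein that binds cholesterol, had 74.0 and 168 RPKM (log2 ratio 1.18), and Tmem97, a partner of NPC1, had 38.7 and 73.6 RPKM (0.93). Cyp27a1, which makes an oxysterol that activates LXR, had 2.13 and 1.15 RPKM (-0.84), and the lipid transporter Abca2 had 35.7 and 20.6 RPKM (-0.79). Ch25h, which makes another oxysterol, was listed at 0 in both libraries. The medians of these 4 lists were below that of the synthesis genes, and no test of the difference between lists was possible with 1 library per group.

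**Figure D5:**
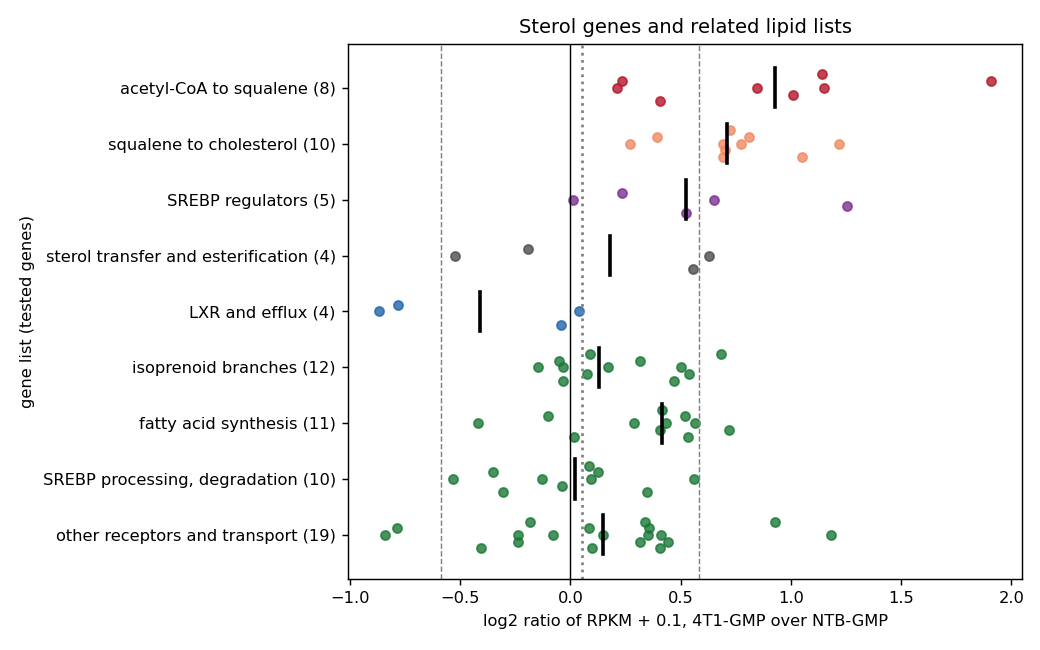
Log2 ratio of RPKM + 0.1 (4T1-GMP over NTB-GMP) of each tested gene in the 5 groups of sterol genes and in 4 other lipid lists; numbers in parentheses are tested genes, black bars are medians, dashed lines mark 1.5-fold and the dotted line is the median of all tested genes. The medians of the synthesis groups stand at 0.93 and 0.71, that of fatty acid synthesis at 0.42 and that of the LXR and efflux genes at -0.41.

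Some of these genes share sequence with others. In GENCODE M21, 774 bases (18.3%) of the exons of Fdft1 overlap those of Ctsb on the opposite strand, and Ctsb had 33.7 and 50.5 RPKM, far above Fdft1. The sources used here do not state whether counting used strand, so without strand reads of Fdft1 and Ctsb could not be told apart there. The longest transcript of Acat2 matches Acat3 at 97.7% identity over 1477 bases and, on the opposite strand, Tcp1 at 98.7% over 445 bases, and Tcp1 had 157 and 202 RPKM. Fdps shares 26.7% of its exon bases with the overlapping gene Gm43738 on the same strand, and Tm7sf2 12.1% with Vps51. Opposite-strand transcripts also cover 13.2% of the exon bases of Scap (5830462I19Rik) and 12.1% of those of Hmgcs1 (Gm48342). Idi1 and Fdft1 have copies of over 97% identity elsewhere (Gm13502 and Gm35570 for Idi1, Gm6781 for Fdft1). The values of these 7 genes are therefore less certain than their intervals show.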

How the data were processed

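Total RNA of sorted GMPs was sequenced in 1 library per group. The authors deposited RPKM, 1 value per gene symbol and library. The submitters' processing notes name CASAVA 1.8.2, cutadapt 1.2.1, TopHat2 2.0.13, Picard 1.97, HTSeq 0.6.1, edgeR 3.12.1 and the build mm10, without saying which step each served. The gene lengths and whether counting used strand are not given in the sources used here.

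Read numbers were worked out from the ratio of the 2 RPKM of each gene above 0 in both libraries. For some genes, such as Abca1, Srebf2 and Sqle, the true reads may be a whole multiple of these, so their intervals may be wider than needed. The library sizes found in this way, 10180365 and 30016263, were not whole numbers before rounding and may include a scaling factor. Log2 ratios used a pseudocount of 0.1. Genes averaging 1 RPKM or more were tested, and a gene was called at a ratio of at least 1.5-fold. With 1 library per group no test was run.

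Genes named in the text were all 32 members and, from each of the 4 other lipid lists, the 2 largest rises and falls, except for a gene that is not reported here; Fasn, Mbtps1 and Ch25h were named after their values were seen. The members and lists were chosen with earlier results of these data known, and motifs and overlaps were added after the values were seen. Lists came from knowledge of the pathways. Alternatives were pseudocounts of 1 and 0.01, no filter, a minimum mean of 5 RPKM, 4 other scalings (Rn45s left out, equal sums, centring on the median, quantile normalization), means or sums in place of medians, a limit of 2-fold and parts of the lists. Positions and overlaps came from GENCODE M21, promoters from RefSeq on GRCm38.p6, and near-identical transcripts (at least 95% over 300 bases) from BLAST 2.17.0. Scripts ran in Python 3.11.15 (scipy 1.17.1, pandas 2.3.3, numpy 2.4.6).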

Additional observations from a re-analysis of the deposited data

How the results depend on the processing

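The median log2 ratio of the 18 synthesis genes was above 0 in all 13 alternatives, from 0.59 without Rn45s in the library sizes to 1.05 as the ratio of summed RPKM. The latter lay above the reported 0.75 by more than the typical counting error of a member, and Fdps made up most of the difference in sums, as the ratio of sums without it was 0.67. Leaving Fdps out of the median, an alternative chosen after seeing the data, gave 0.72. The median of the LXR and efflux genes was below 0 in all 11 alternatives. It stood at -0.041 with no filter on low values, which adds Nr1h3, and at -0.78 without the receptors. The distance between both medians ran from 0.79 to 1.32 over 10 alternatives, which did not include parts of the lists. Of 16 members past 1.5-fold higher, 10 were counted without Rn45s and 7 at a limit of 2-fold. Of the 2 lower members, 1 (Mylip) was counted at a minimum mean of 5 RPKM, which drops Abcg1, and 0 at a limit of 2-fold. Of 240 values of single members under the alternatives, 229 lay inside the counting interval and 11 moved beyond it but kept their sign. Among the 229, 7 values, of Srebf2 and Abca1, changed sign. The cause was not tested for the scalings. Nr1h3, Tm7sf2 and Mvd rested on 9, 41 and 48 recovered reads in NTB-GMP. No paired analysis was possible because NTB-GMP and 4T1-GMP were 1 library each, which also left no replicate to omit.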
